A study of Mus musculus with 6 samples.

Results

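The genes described here are a set of 9 from the bone morphogenetic protein (BMP) pathway, taken by symbol from the 24421 rows of the deposited expression matrix: the ligands *Bmp2*, *Bmp4* and *Bmp6*, the receptors *Bmpr1a* and *Bmpr2*, the secreted antagonist *Grem1*, and the target genes *Id1*, *Id2* and *Id3*. All 9 were found. Of these, 8 reached at least 1 TPM (a transcript level per transcript length, relative to the total of its library) in at least 3 libraries and were tested, as were 10185 genes in all. *Grem1* was listed at 0 TPM in each library and was not tested.

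RNA was measured in cells of the aortic root and ascending aorta of untreated mice at 8 weeks of age, strain 129S6/SvEv. All mice carried the conditional reporter allele CAG-Sun1/sfGFP, together with either a Mef2cSHF Cre allele, which marks the secondary heart field (SHF) lineage, or a Wnt1-Cre2 allele, which marks the cardiac neural crest (CNC) lineage. Living GFP+ cells were sorted into 6 bulk libraries, 3 of SHF-traced and 3 of CNC-traced cells, to ask which transcripts differ with embryonic origin. Each Cre marks descent and not a cell type, and the gate had no marker for vascular smooth muscle cells (VSMCs).

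BMP ligands are secreted dimers that bring type I receptors such as BMPR1A together with type II receptors such as BMPR2. The active type I receptor phosphorylates SMAD1, SMAD5 and SMAD9, which join SMAD4 and bind regulatory DNA of target genes, the Id genes among them. ID proteins lack a DNA-binding domain and hold E proteins away from DNA, gremlins bind the ligands outside the cell, and loss-of-function variants in the BMPR2 gene cause heritable pulmonary arterial hypertension.

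The marker lists were read first, as summed levels per library. Values of single libraries are given throughout in the order of replicates 1, 2 and 3. The summed level of 12 smooth muscle genes was 1496 to 3145 TPM in the SHF and 1379 to 2075 TPM in the CNC libraries, whereas 10 fibroblast genes summed to 29221 to 32484 TPM and 40269 to 54798 TPM. The fibroblast sums did not overlap, and 6 of the 10 genes were higher in each CNC library than in any SHF library, while the rest overlapped. Among all genes tested, 5.68% separated with CNC higher. The sum of 10 endothelial genes was 87.57, 580.67 and 541.42 TPM in SHF and 62.56, 65.84 and 27.35 TPM in CNC libraries, with *Cdh5*, *Tie1*, *Cldn5*, *Vwf* and *Emcn* listed at 0 in all CNC libraries and *Pecam1*, *Tek* and *Flt1* above 0 in all of them. The sum of 8 cardiomyocyte genes was 87.44 to 116.02 TPM in SHF and 0 to 37.89 TPM in CNC libraries, that of 6 Schwann cell genes 1.5 to 15.32 TPM and 21.43 to 94.40 TPM. Leukocyte sums (0 to 26.9 TPM and 7.96 to 128.75 TPM, with *Ptprc* at 0 in all 6) and those of 12 dissociation-response genes (5712 to 11859 TPM and 6509 to 8002 TPM) overlapped. *Xist* was listed only in SHF replicates 2 and 3, at 51.95 and 38.76 TPM, and Y-linked transcripts only in the other 4 libraries. In bulk samples, fewer cells of a type and less RNA per cell cannot be told apart.

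TPM keeps no record of sequencing depth, so no counting interval could be given. Between 9255 and 11858 genes were above 0 TPM in a library. A value of 0 from this amplified material is given as "listed at 0", and no fold change is given against a lineage listed at 0.

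DNA near a start site of 3 of the genes is shown, because SMAD proteins reach the Id genes and other targets through regulatory sequence. A RefSeq promoter table on GRCm38.p6 (the build also called mm10) held 7 of the 9 genes, all except *Bmp2* and *Id1*. The 250 bases before the start that this table gives for each gene were searched on both strands for the SMAD1/5-type elements GGCGCC and GGAGCC and the SMAD4-type element CAGAC. None of the 3 motifs lies within another, GGCGCC reads the same on both strands, and each is common, with 9.59%, 26.0% and 42.2% of 32851 promoter windows holding it. Matches are in capitals, sequences run 5′ to 3′ on the strand of the gene, and a GGAGCC match on the opposite strand reads GGCTCC. The start in the table lay inside the longer GENCODE M21 gene for 5 of the 7 genes, by 1048 bases for *Id2*, 325 for *Id3*, 609 for *Bmp6*, 795 for *Bmpr1a* and 879 for *Bmpr2*. Only the windows of *Bmp4* and *Grem1* lay before the whole gene. By that annotation the *Id2* stretch is in an intron, the *Id3* stretch is in an exon and the *Bmp4* stretch is upstream of the gene.
Id2, chr12:25096254-25096342, minus strand, positions -250 to -162 from the RefSeq start: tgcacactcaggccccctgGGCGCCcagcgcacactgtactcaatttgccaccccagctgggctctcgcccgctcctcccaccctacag
Id3, chr4:136143632-136143661, plus strand, positions -190 to -161 from the RefSeq start: cgaGGCTCCgctgtcctcggcgtCAGACca
Bmp4, chr14:46390670-46390919, minus strand, positions -250 to -1 from the RefSeq start: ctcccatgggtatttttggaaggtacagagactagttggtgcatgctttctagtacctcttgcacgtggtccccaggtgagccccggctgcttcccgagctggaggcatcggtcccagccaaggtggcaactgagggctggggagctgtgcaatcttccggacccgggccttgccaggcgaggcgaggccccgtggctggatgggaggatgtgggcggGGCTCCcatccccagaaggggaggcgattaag
Outside the stretches shown, *Id2* had a GGAGCC match at position -88 and *Id3* a second CAGAC match at position -68. GGCGCC also occurred in the windows of *Bmpr1a*, *Bmpr2* and *Grem1*, and CAGAC in those of *Bmp6* and *Grem1*. A match is a run of letters and was not tested as a binding site.

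Across the set, no gene passed the threshold between the lineages. The comparison used limma on log2(TPM + 1), with SHF minus CNC as the difference and a Benjamini-Hochberg adjusted p under 0.05 as the threshold, and it called 0 of the 8 genes tested, against 0 of 10185 genes (0%). At an unadjusted p under 0.05 it called 0 of the 8 in either direction, while 274 of all genes (2.69%) were higher in SHF cells and 323 (3.17%) higher in CNC cells. The difference was above 0 for 8 of 8 set genes, with a median of 0.60 on the log2 scale, beside 5215 of 10185 genes (51.2%) and a median of 0.02. The 8 genes were measured in the same 6 libraries and are not independent. Their libraries did not overlap in 1 case, with SHF higher (*Id2*), and in 0 cases with CNC higher, where the shares over all genes were 6.11% and 5.68%. The study's methods select transcripts exclusive to a lineage at a threshold of 5 TPM. With exclusive read here as above 5 TPM in all libraries of one lineage and 0 in those of the other, 0 of the 9 genes were exclusive, against 34 of 24421 rows (0.139%).

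**Figure D1:**
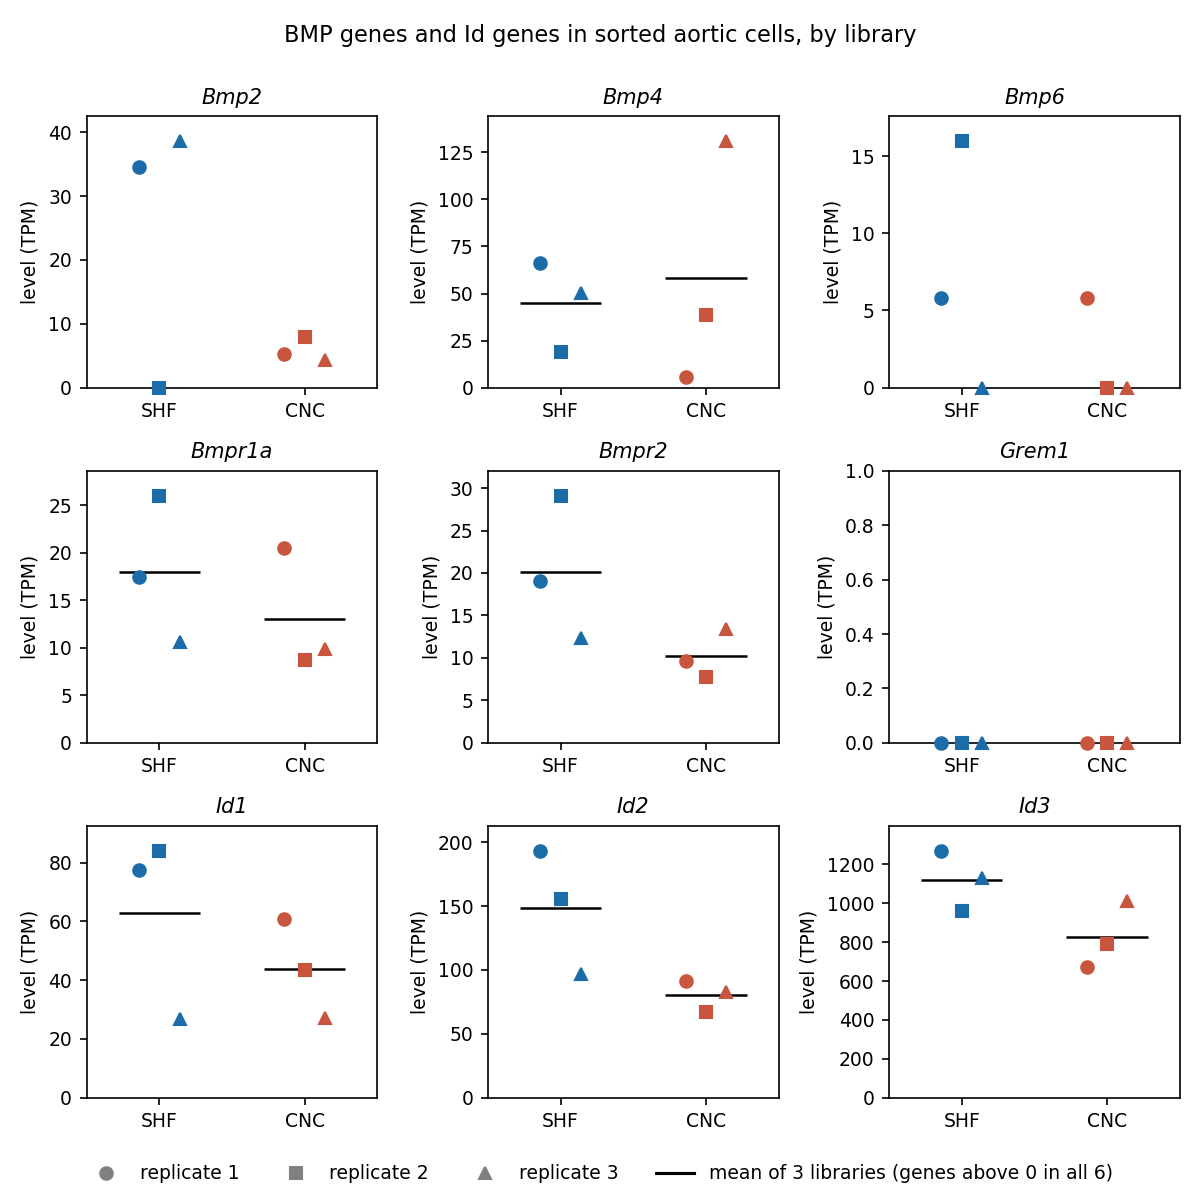
Level of each of the 9 genes in TPM (vertical axes, linear from 0) in the 3 SHF and 3 CNC libraries; symbols mark replicates, and the black line is the mean of 3 libraries, drawn only for genes above 0 in all 6. *Id2* is the only gene whose SHF points all lie above its CNC points, *Bmp2* and *Bmp6* have points at 0, and *Grem1* lies at 0 throughout.

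The ligands were the most uneven genes of the set. *Bmp2* (chr2:133552159-133562885, plus strand), whose product acts in heart valve and outflow tract formation, was at 34.57, 0 and 38.66 TPM in SHF and at 5.20, 7.98 and 4.38 TPM in the CNC libraries. SHF replicates 1 and 3 were above all CNC libraries and SHF replicate 2, listed at 0, was below all of them, so the lineages overlapped. The difference was 0.75 (95% interval -2.69 to 4.18, adjusted p by limma 0.950) on the log2 scale. It was -0.09 without SHF replicate 1, -0.17 without SHF replicate 3 and 2.49 without SHF replicate 2.

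*Bmp4* (chr14:46383520-46390669, minus strand), a ligand of many mesenchymal tissues, was at 66.17, 18.80 and 50.35 TPM in SHF and at 5.58, 38.72 and 131.18 TPM in CNC libraries. Both the highest and the lowest of the 6 values were CNC libraries, 23.5 times apart, and the lineage means were 45.1 ± 24.1 TPM and 58.5 ± 65.1 TPM (SD, n = 3 each). The mean level was higher in CNC cells, whereas the difference of log2 values was 0.33 with SHF higher (95% interval -1.93 to 2.59, adjusted p by limma 0.968). It was -0.83 without CNC replicate 1, -0.031 without SHF replicate 1 and 1.34 without CNC replicate 3, so no direction can be given. A gene model named *Gm15217* overlaps an exon of *Bmp4* on the opposite strand, and reads of overlapping genes cannot be told apart in libraries that do not keep the strand.

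*Bmp6* (chr13:38345107-38500302, plus strand), a ligand known from iron regulation and endothelium, was at 5.79, 16.00 and 0 TPM in SHF and at 5.82, 0 and 0 TPM in CNC libraries. It was listed at 0 in 3 of 6 libraries, at least 1 in each lineage, and its highest value was in SHF replicate 2, which also had the highest endothelial sum. The part of endothelial cells in this value was not tested. The limma difference was 1.36 (95% interval -1.52 to 4.24, adjusted p 0.896). Zeros are frequent at this level in these data: among 3310 genes with a mean within a factor of 2 of *Bmp6*, 33.9% of values were 0, and among 4260 genes near *Bmp2* 14.5% were. *Bmp6* overlaps *Txndc5* on the opposite strand.

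The receptors were low and even. *Bmpr1a* (chr14:34410734-34503341, minus strand), the type I receptor also called ALK3, was at 17.40, 26.01 and 10.59 TPM in SHF and at 20.45, 8.66 and 9.85 TPM in CNC libraries. The ranges overlapped, with means of 18.0 ± 7.73 TPM and 13.0 ± 6.49 TPM and a difference of 0.45 (95% interval -1.75 to 2.65, adjusted p by limma 0.951). *Bmpr1a* overlaps the antisense gene *Gm17110*.

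*Bmpr2* (chr1:59763400-59879014, plus strand), the type II receptor, was at 19.04, 29.11 and 12.34 TPM in SHF and at 9.68, 7.69 and 13.38 TPM in CNC libraries. One crossing kept the lineages from separating, since the highest CNC value lay above the lowest SHF value. The means were 20.2 ± 8.44 TPM in SHF and 10.25 ± 2.89 TPM in CNC cells, a difference of 0.86 on the log2 scale (95% interval -1.32 to 3.05, adjusted p by limma 0.906).

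Within each SHF library the 2 receptors were near each other, and within the CNC libraries less so. *Bmpr2* was 109%, 112% and 117% of *Bmpr1a* in the SHF libraries and 47.3%, 88.8% and 136% in the CNC libraries. The SHF ratios lay close together and inside the range of the CNC ratios. The log2 ratio differed by 0.41 between lineages (exact two-sided permutation p = 0.4, adjusted 0.6 over 3 ratios), where 3 against 3 libraries cannot give a p below 0.1. It differed by 0.034 without CNC replicate 1 and by 0.74 without CNC replicate 3.

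*Grem1* (chr2:113746164-113758646, minus strand), which encodes gremlin 1, an antagonist of BMP2 and BMP4, was listed at 0 in all 6 libraries. It was the only gene of the set without a value above 0.

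The Id genes had the highest mean levels of the set. *Id3* (chr4:136143497-136145755, plus strand) was at 1270.51, 961.83 and 1127.95 TPM in SHF and at 674.21, 788.07 and 1011.12 TPM in CNC libraries, rank 155 of 24421 rows by mean level. SHF replicates 1 and 3 were above every CNC library, and SHF replicate 2 was below CNC replicate 3. The lineage means were 1120 ± 154 TPM and 824 ± 171 TPM, with a difference of 0.45 on the log2 scale (SE 0.26, 95% interval -0.12 to 1.02, adjusted p by limma 0.874).

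*Id2* (chr12:25093799-25097140, minus strand) was at 193.34, 155.33 and 96.98 TPM in SHF and at 91.06, 67.41 and 82.78 TPM in CNC libraries. Each SHF library was above each CNC library, though SHF replicate 3 exceeded CNC replicate 1 by a small margin. The means were 149 ± 48.5 TPM in SHF and 80.4 ± 12.0 TPM in CNC cells. The log2 difference of 0.83 (95% interval -0.13 to 1.79) missed the threshold, with an unadjusted p of 0.082 and an adjusted p of 0.874 by limma.

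The endothelial sum was also higher in each SHF library, with 4 of 10 of its genes separating the lineages, where 6.11% of all genes did with SHF higher. The cardiomyocyte sum was higher in each SHF library too, with 0 of 8 genes separating and *Myl7* at 0 throughout. The fibroblast and Schwann cell sums were higher in each CNC library. *Id2* was highest in SHF replicate 1, the SHF library with the lowest endothelial sum. With SHF replicates 2 and 3, the libraries with *Xist* and the 2 highest endothelial sums, left out, the *Id2* difference was 1.27 between 1 SHF and 3 CNC libraries (adjusted p by limma 1.00). The part of these other cell types and of sex in the *Id2* levels was not tested. SHF replicate 1 had the highest dissociation-response sum, 11859 TPM, and its part in the *Id2* and *Id3* levels was not tested.

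*Id1* (chr2:152736251-152737410, plus strand) was at 77.57, 84.10 and 26.87 TPM in SHF and at 60.70, 43.40 and 27.28 TPM in CNC libraries. Replicate 3 of each lineage was low, at nearly the same level, and the lineages overlapped. The means were 62.8 ± 31.3 TPM and 43.8 ± 16.7 TPM, a difference of 0.42 (95% interval -1.01 to 1.85, adjusted p by limma 0.931).

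*Id3* made up most of the Id message in each library. *Id3* was 82.4%, 80.1% and 90.1% of the summed TPM of the 3 Id genes in the SHF libraries and 81.6%, 87.7% and 90.2% in the CNC libraries. *Id2* made up 7.38% to 12.9% and *Id1* 2.15% to 7.35% of that sum over the 6 libraries. The sum itself was 1541, 1201 and 1252 TPM in SHF and 826, 899 and 1121 TPM in CNC libraries.

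Each SHF sum was above each CNC sum, the closest being 1201 and 1121 TPM, and the sum was not tested. Among all genes tested, 6.11% separated with SHF higher. The shares overlapped, as did the levels of *Id3*, which made up most of the sum. The ratio of *Id2* to *Id3* differed by 0.38 on the log2 scale with SHF higher (exact two-sided permutation p = 0.2, adjusted 0.6), and that of *Id1* to *Id3* by -0.03 (exact p = 0.9, adjusted 0.9). The *Id2* to *Id3* value was 0.21 without SHF replicate 2, 0.25 without CNC replicate 3 and 0.67 without SHF replicate 3. The *Id1* to *Id3* value ranged from -0.48 to 0.50 with single libraries left out, and 0.50 was the value without SHF replicate 3.

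Ordered by mean level over the 6 libraries, *Id3* (972 TPM) stood first, followed by *Id2* (114 TPM), *Id1* (53.3 TPM), *Bmp4* (51.8 TPM), *Bmpr1a* (15.5 TPM), *Bmpr2* (15.2 TPM), *Bmp2*, *Bmp6* and *Grem1*. *Id3* was above *Id2* in 6 of 6 libraries, by 3.14 ± 0.45 on the log2 scale (SD, exact sign-flip permutation p = 0.03125, adjusted 0.109 over 7 neighbouring pairs). *Id2* was above *Id1* in 6 of 6 libraries, by 1.13 ± 0.51 (exact p = 0.03125, adjusted 0.109). That p is the smallest that 6 libraries can give, and an adjusted p under 0.05 needed most of the 7 pairs to reach it. The pairs were set by mean levels in these same libraries.

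Below *Id1* the neighbours crossed between libraries. *Id1* exceeded *Bmp4* in 4 of 6 libraries (0.44 ± 1.98, exact p = 0.5625), and *Bmp4* exceeded *Bmpr1a* in 4 of 6 (1.25 ± 1.95, exact p = 0.219). *Bmpr1a* exceeded *Bmpr2* in 2 of 6 libraries, with a mean log2 ratio of 0.04 ± 0.50. *Bmpr2* was above *Bmp2* in 3 of 6 and *Bmp2* above *Bmp6* in 4 of 6 libraries (exact p = 0.625 and 0.3125).

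**Figure D2:**
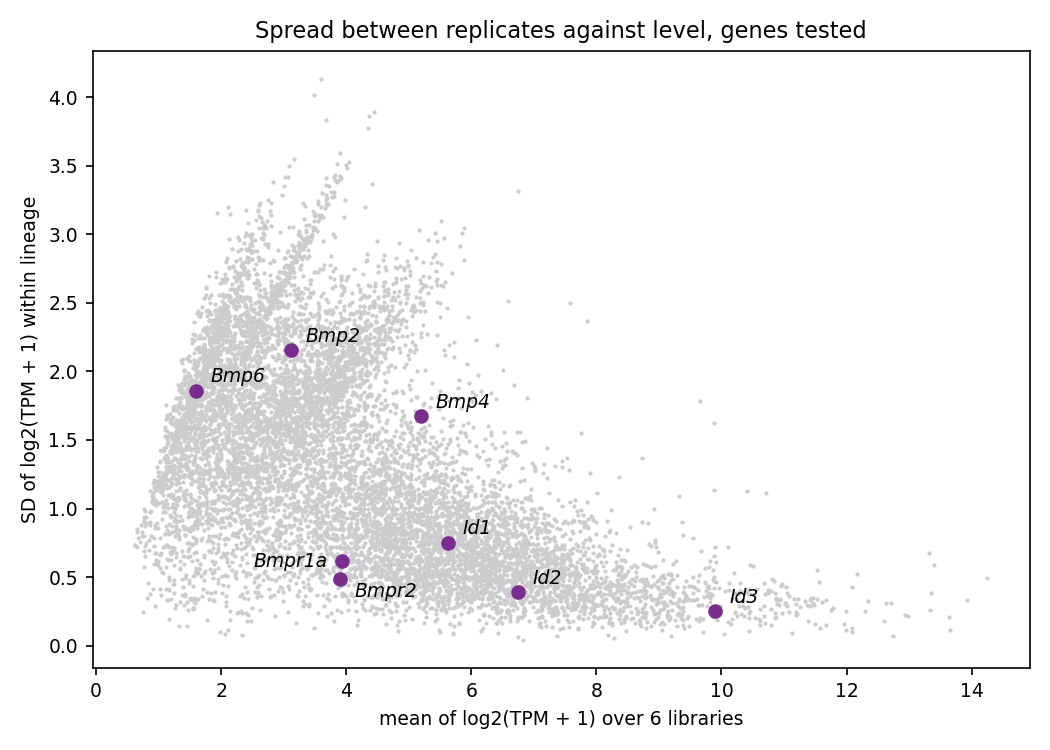
SD between replicates of one lineage (vertical axis, log2(TPM + 1), pooled over both lineages) against mean level over 6 libraries (horizontal axis, log2(TPM + 1)) for the genes tested, in grey, with the 8 set genes tested in purple. *Bmpr1a* and *Bmpr2* lie near the lower edge at their level, *Bmp4* near the upper edge, and *Bmp2* and *Bmp6* among many genes of like spread.

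The spread between replicates differed among the genes at like levels. The SD within a lineage was 0.489 on the log2 scale for *Bmpr2*, and 3.42% of genes within 0.5 log2 units of its level had a smaller one. For *Bmpr1a* it was 0.616, with 8.19% of such genes below it. *Bmp4*, at 1.67, was more variable than 87.0% of genes of its level, whose median was 0.863.

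*Bmp2* (2.15) and *Bmp6* (1.86) had larger SDs than 73.1% and 68.5% of genes near them. *Id3* (0.252), *Id2* (0.389) and *Id1* (0.750) exceeded 22.6%, 17.3% and 47.3%. These SDs rest on 3 libraries per lineage.

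The library with the highest value differed from gene to gene. SHF replicate 2 was the highest library for 4 of the 8 genes above 0, SHF replicate 1 for 2, and SHF replicate 3 and CNC replicate 3 for 1 each. CNC replicate 2 was the lowest for 3 genes, CNC replicate 1 and SHF replicate 3 for 2 each, and SHF replicate 2 for 1, where *Bmp6*, tied at 0, was counted for SHF replicate 3.

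The wider pathway was described with 56 genes in 5 lists by role, of which 38 were tested and 9 were listed at 0 in all 6 libraries. None passed the adjusted threshold by limma (adjusted p 0.824 to 0.998), and 2 were higher in SHF and 0 in CNC cells at an unadjusted p under 0.05, where the shares over all genes were 2.69% and 3.17%. The difference was positive for 27 of the 38 (71.1%), with a median of 0.44. For the 30 tested genes outside the set it was positive for 19 (63.3%), with a median of 0.31, beside 51.2% and 0.02 over all genes.

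**Figure D3:**
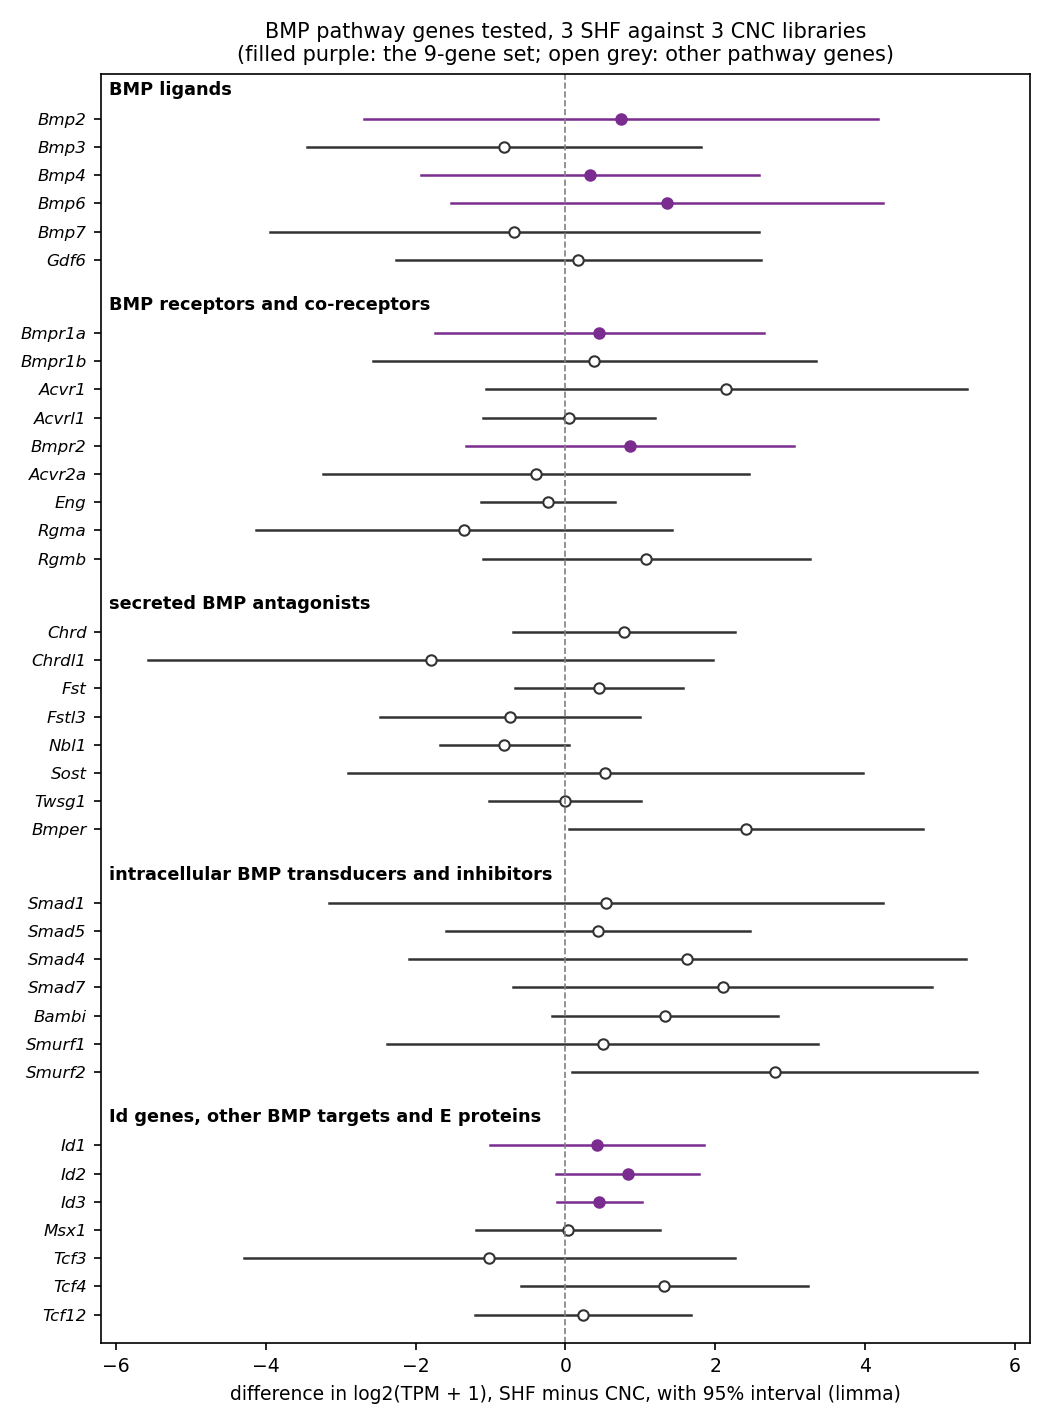
Difference in log2(TPM + 1), SHF minus CNC, with its 95% interval from limma (horizontal axis), for 37 of the 38 pathway genes tested, grouped by role; filled purple points are the 9-gene set and open points the other genes. The intervals of all genes drawn except *Bmper* and *Smurf2* cross 0, and the 7 intracellular transducers and inhibitors all have positive differences.

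Among the 13 ligands 6 were tested, 4 with positive differences and a median of 0.25. *Bmp3*, which opposes other BMPs, was at 1.35, 20.94 and 21.14 TPM in SHF and at 23.73, 18.37 and 12.18 TPM in CNC libraries (log2 difference -0.82, adjusted p by limma 0.927), so that only SHF replicate 1 stood low. *Bmp8b*, *Bmp10*, *Gdf2*, *Gdf5* and *Gdf7* were at 0 throughout.

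Among the 10 receptors and co-receptors 9 were tested, 6 with positive differences and a median of 0.39. *Eng* (endoglin, a co-receptor known from endothelium) was at 218.98, 276.90 and 112.89 TPM in SHF and at 275.15, 180.50 and 225.16 TPM in CNC libraries (log2 difference -0.23, adjusted p by limma 0.938). *Acvrl1*, a type I receptor for BMP9, was at 52.51, 70.93 and 80.85 TPM in SHF and at 44.76, 61.08 and 99.47 TPM in CNC libraries (log2 difference 0.05). Both were thus well above *Bmpr1a* and *Bmpr2* in all 6 libraries and overlapped between lineages. The co-receptors *Rgma* (0.53 to 15.61 TPM in SHF, 14.45 to 21.63 TPM in CNC) and *Rgmb* (21.66 to 39.23 TPM and 4.39 to 47.03 TPM) had differences of -1.35 and 1.08, both with an adjusted p of 0.896. The *Rgma* difference was -0.22 without SHF replicate 2, and that of *Rgmb* was 0.36 without CNC replicate 2 and 1.93 without CNC replicate 3.

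The secreted antagonists were mixed, with 9 of 14 tested, 4 positive differences and a median of -0.005. *Chrd* (chordin) was higher in each SHF library than in any CNC library, at 41.62, 35.78 and 41.02 TPM in SHF and 18.30, 24.80 and 24.84 TPM in CNC libraries. The log2 difference was 0.79 (95% interval -0.70 to 2.27, adjusted p by limma 0.895).

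*Bmper*, which encodes a secreted BMP-binding regulator, was at 90.50, 91.90 and 20.41 TPM in SHF and at 20.01, 22.83 and 1.44 TPM in CNC libraries. Replicate 3 was the lowest of both lineages, as it was for *Id1*, and the lineages overlapped through SHF replicate 3 and CNC replicate 2. The difference was 2.41 (SE 1.07, unadjusted p by limma 0.047, adjusted 0.834), and 1.34 without CNC replicate 3. *Nbl1*, a DAN-family antagonist and the most abundant of the list, was at 208.02, 236.04 and 335.46 TPM in SHF and at 740.58, 274.67 and 442.98 TPM in CNC libraries (difference -0.81, adjusted p 0.874).

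The other antagonists with a mean of at least 10 TPM overlapped between lineages. Follistatin (*Fst*) was at 52.34 to 143.47 TPM in SHF and 66.60 to 79.17 TPM in CNC libraries, *Fstl3* at 15.12 to 184.30 TPM and 87.65 to 148.58 TPM, and *Twsg1* at 137.56 to 185.50 TPM and 79.40 to 238.25 TPM. Their differences were 0.45, -0.74 and -0.005. *Chrdl1* (0 to 19.21 TPM and 0.80 to 94.73 TPM) and *Sost* (0 to 24.82 TPM and 0.75 to 13.74 TPM) were each listed at 0 in 1 SHF library. Their differences were -1.80 and 0.53 (adjusted p by limma 0.896 and 0.964). With single libraries left out, that of *Chrdl1* ranged from -3.57 (without CNC replicate 1) to -0.51 (without SHF replicate 2). *Nog*, *Cer1* and *Chrdl2* were listed at 0 in all 6.

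**Figure D4:**
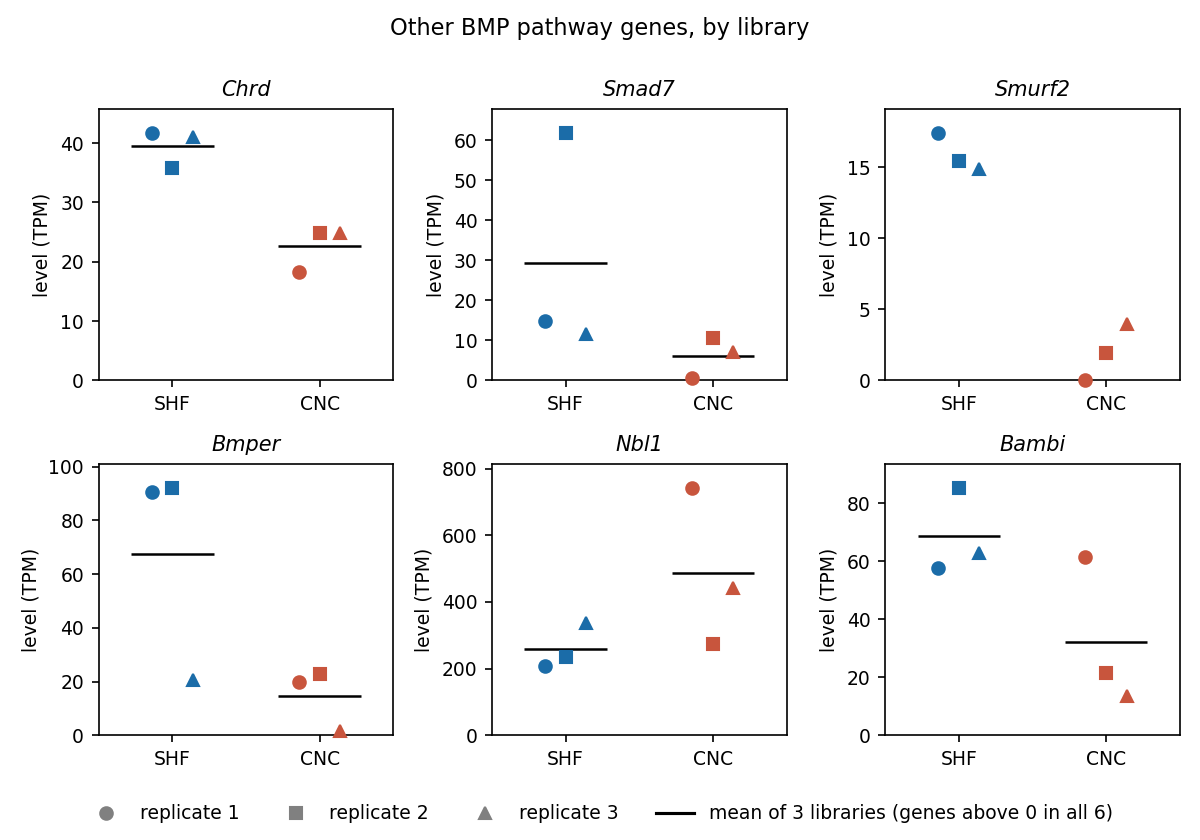
Level in TPM (vertical axes, linear from 0) in the 3 SHF and 3 CNC libraries of 3 pathway genes outside the set whose lineages do not overlap (*Chrd*, *Smad7*, *Smurf2*) and of *Bmper*, *Nbl1* and *Bambi*; symbols mark replicates and the black line the mean of 3 libraries, drawn only for genes above 0 in all 6. *Chrd*, *Smad7* and *Smurf2* lie higher in all SHF libraries, while *Bmper*, *Nbl1* and *Bambi* overlap.

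All 7 tested intracellular transducers and inhibitors (of 9) had positive differences, with a median of 1.32. The lineages did not overlap for 2 of the 7, *Smad7* and *Smurf2*, both with SHF higher, where the share over all genes was 6.11%. *Smad7*, an inhibitory SMAD, was at 14.74, 61.74 and 11.56 TPM in SHF and at 0.68, 10.48 and 7.15 TPM in CNC libraries (difference 2.10, 95% interval -0.69 to 4.90, adjusted p by limma 0.874). *Smurf2*, a ubiquitin ligase of SMADs and receptors, was at 17.38, 15.47 and 14.90 TPM in SHF and at 0, 1.93 and 3.94 TPM in CNC libraries, with little spread among the SHF libraries (difference 2.79, SE 1.23, unadjusted p by limma 0.044, adjusted 0.824).

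*Bambi*, a decoy receptor, was at 57.64, 85.07 and 62.84 TPM in SHF and at 61.39, 21.58 and 13.55 TPM in CNC libraries (difference 1.32, adjusted p 0.874). The transducers themselves overlapped. *Smad1* was at 2.03, 70.49 and 2.33 TPM in SHF and 0, 20.98 and 9.61 TPM in CNC libraries, *Smad5* at 13.99 to 33.61 TPM and 11.42 to 21.72 TPM, and *Smad4* at 0 to 35.70 TPM and 0 to 16.85 TPM, with differences of 0.54, 0.43 and 1.63.

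Of the 10 Id genes, other targets and E proteins, 7 were tested, 6 with positive differences and a median of 0.42. *Msx1*, a BMP-responsive homeobox gene, was at 59.57 to 322.64 TPM in SHF and 120.27 to 147.75 TPM in CNC libraries (difference 0.03). The E proteins, which ID proteins bind, were below *Id3* in every library. *Tcf4* was at 17.52, 103.04 and 52.09 TPM in SHF and 8.00, 23.04 and 29.43 TPM in CNC libraries, *Tcf12* at 30.37 to 69.59 TPM and 27.37 to 41.03 TPM, and *Tcf3* at 0.35 to 15.55 TPM and 1.70 to 36.01 TPM. Their differences were 1.32, 0.23 and -1.02, each with overlapping lineages (adjusted p by limma 0.876, 0.962 and 0.928).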

How the data were processed

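The authors amplified RNA of sorted cells by the SmartSeq2 protocol, made Nextera XT libraries without strand information and ran RSEM 1.2.25, with Bowtie2 as its aligner, on mm10 to estimate the level of each gene. They deposited TPM, 1 column per library, matched to samples by library code. The gene annotation is not given in the sources used here, and depth is unknown. The lineage comparison was a limma 3.58.1 fit (R 4.3.3, eBayes with a trend) to log2(TPM + 1). It took the 10185 genes that reached 1 TPM in 3 or more libraries. The log scale understates changes of low genes. The fit was tested on simulated data. Single ratios and level orders were tested by exact permutation with scipy 1.17.1 and Python 3.11.15, and plots used matplotlib 3.10.9. The planned ratio of *Grem1* to *Bmp4* and the pair *Bmp6* and *Grem1* were not computed, because *Grem1* was listed at 0. The study describes the 3 libraries of a group as biological replicates.

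Named were the 9 set genes, the other pathway genes whose mean was 10 TPM or more or whose lineages did not overlap, and the 3 genes nearest in profile to each of the 3 most abundant set genes. The set, the lists and the motifs were chosen with earlier results of these data known. *Gm13305*, *Rps27rt* and marker genes at 0 were named after their values were seen. Positions are from GENCODE M21 on GRCm38, and promoter sequences are from RefSeq. Same-numbered SHF and CNC libraries did not deviate together (correlations -0.0113, -0.00438 and -0.0106), so replicate numbers were not taken as pairs. Alternatives were other pseudocounts, filters, scalings and variance models, a replicate block, and libraries left out. The single-cell data of the study were not analysed here, and some results, among them 1 pathway gene counted in its list, are not reported here.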

Additional observations from a re-analysis of the deposited data

How the results depend on the processing

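No alternative took a set gene past the adjusted threshold. Of 124 alternative differences for the 8 tested set genes, 119 kept their direction and 5 reversed. Other filters, eBayes without a trend and the replicate block cannot change a difference, and their values are counted among the 119. *Bmp2* gave -0.17 with a pseudocount of 0.1 and -0.17 to 2.49 with single libraries left out, and *Bmp4* -0.83 to 1.34. *Id2* stayed between 0.62 and 1.27 and *Id3* between 0.32 and 0.64. Of 380 values for 24 other pathway genes, 32 reversed, again with the settings that cannot change a difference counted. Leaving out single libraries gave -1.36 to 0.25 for *Bmp3*, -0.21 to 0.35 for *Acvrl1*, -0.51 to 0.14 for *Eng*, -1.42 to 0.34 for *Fstl3*, -0.33 to 2.01 for *Sost*, -0.50 to 0.29 for *Twsg1*, -0.95 to 1.46 for *Smad1*, -0.59 to 0.62 for *Msx1*, -2.12 to 0.082 for *Tcf3* and -0.16 to 0.43 for *Tcf12*. Values on the other side of 0 came without SHF replicate 1 (*Bmp3*, *Sost*, *Twsg1*), SHF replicate 2 (*Fstl3*, *Sost*, *Smad1*, *Msx1*, *Tcf3*, *Tcf12*), SHF replicate 3 (*Acvrl1*, *Eng*, *Twsg1*), CNC replicate 1 (*Acvrl1*, *Twsg1*, *Smad1*), CNC replicate 2 (*Sost*) or CNC replicate 3 (*Twsg1*, *Msx1*). Of the values that kept their direction, *Bmp6* ranged from 0.90 to 2.50 (highest without SHF replicate 3) over the 3 libraries without which it still passed the filter and was 0.69 with a pseudocount of 5, and with single libraries left out *Bmpr1a* ranged from 0.16 (without SHF replicate 2) to 0.81, *Bmpr2* from 0.57 (without SHF replicate 2) to 1.16, *Id1* from 0.13 (without CNC replicate 3) to 0.94 (without SHF replicate 3), *Bmper* from 1.34 to 3.11, *Nbl1* from -1.17 to -0.45 (without CNC replicate 1), *Smad7* from 1.26 (without CNC replicate 1) to 2.65, *Bambi* from 0.87 (without CNC replicate 3) to 1.92, *Smad5* from 0.070 (without SHF replicate 1) to 0.71, and *Smad4*, over the 3 libraries without which it was still tested, from 0.82 (without CNC replicate 2) to 3.24 (without SHF replicate 2). Without SHF replicate 2 *Tcf4* was 0.74 and *Fst* 0.91, without SHF replicate 1 *Tcf4* was 1.99, and without SHF replicate 3 *Fst* was 0.19. *Tcf4* was 0.68 with library weights. With single libraries left out, the log2 ratio of *Id1* to *Bmp4* was -0.12 to 0.97. That of *Bmp4* to *Bmpr1a* was 0.78 (without CNC replicate 3) to 1.84 (without CNC replicate 1). With the same omissions, *Bmpr1a* to *Bmpr2* was -0.15 to 0.14 and *Bmpr2* to *Bmp2* -0.049 to 1.25. The lineage difference in *Id1* to *Id3* was -0.48 to 0.50. Median-of-ratios rescaling gave -0.029 for *Acvrl1* and -0.047 for *Msx1*, quantile normalization -0.017 for *Acvrl1*, library weights -0.20 for *Acvrl1*, -0.51 for *Smad1* and -0.10 for *Msx1*, and a pseudocount of 0.1 -0.16 for *Sost*. With SHF replicates 2 and 3 left out (chosen after seeing the data, the lone SHF library being assumed to vary like the CNC libraries), *Acvrl1* was -0.30, *Fstl3* 0.61, *Smad1* -1.02, *Msx1* -0.028, *Tcf3* 0.40, *Tcf4* -0.017 and *Tcf12* -0.15, and *Bmp6* was not tested. Over all genes the count past the threshold, 0, became 1 with a pseudocount of 5 (*Gm13305*, -4.58, adjusted p by limma 0.0443) and 1 without those 2 libraries (*Rps27rt*, -4.44, adjusted p 0.00685). With a replicate block the *Bmp2* difference was 0.75 (adjusted p by limma 0.957), and the block changed no call. For values that changed by setting, the cause was not tested beyond fewer libraries. Depth is unknown, so how far it limits *Bmp2*, *Bmp6* and *Grem1* cannot be given.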

Other observations

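The profiles most like those of *Id3* and *Id1* over the 6 libraries were sought among the genes tested, by root mean square distance of centred log2(TPM + 1) values. None of those named here is a pathway gene. Pathway genes were only 38 of the 10185 genes tested, so their absence tells little. Nearest to *Id3* were *Fat1* (0.0998), a protocadherin gene, and *Ndufv3* (0.105) and *Atp5g1* (0.129), which encode subunits of mitochondrial complexes. Nearest to *Id1* were *Tmem120a* (0.137), *Atp6v0a1* (0.144), a proton pump subunit, and *Plcxd1* (0.172). These distances are a description.

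*Id4*, the fourth gene of the Id family, had a value above 0 in 2 libraries, 20.14 TPM for SHF replicate 1 and 3.56 TPM for CNC replicate 3. *Bmp5* was above 0 in the same 2 libraries, with 13.15 and 14.37 TPM. The antagonist gene *Sostdc1* was above 0 only in CNC replicate 2, at 13.78 TPM. SHF replicate 1 and CNC replicate 3 were also the libraries with the most genes above 0 TPM, 11858 and 11334.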
